A study of Caenorhabditis elegans with 9 samples.

Results

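Plain and amino-functionalized graphene oxide were compared by RNA-seq in whole wild-type (N2) Caenorhabditis elegans. Graphene oxide (GO) is a carbon sheet that carries oxygen groups, and GONH2 is GO that also carries amino groups. The comparison covers the 3 GONH2 libraries against the 3 GO libraries, across the 12849 of 46284 listed genes that had at least 1 FPKM (sequenced fragments scaled to transcript length and library total) in at least 3 of the 9 libraries of the series. The remaining 3 libraries are the mock-treated control, and their values are given beside the others for every called gene and for some further genes.

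Every group was wild-type N2, kept in liquid culture for 12 h, and 500 whole animals went into each sample. No source used here gives the dose of either material or the age of the animals, so the materials are matched in time and not shown to be matched in dose. Nothing in the labels says that the replicates came from separate cultures, so the p-values measure only the spread between these samples, which may be technical. A single pair of materials was compared, and all values are of bulk RNA, in which fewer cells of a type and less RNA per cell cannot be told apart.

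Amino groups on graphene oxide change its surface charge and chemistry, and with them how the sheets bind proteins and membranes. C. elegans takes in particles with its bacterial food, and particles taken in this way reach the intestine. The intestine is also where the animal makes most of its secreted defence proteins, among them lysozymes and C-type lectins, under the control of pathways such as the PMK-1 p38 kinase cascade and the insulin-regulated factor DAF-16.

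Summed FPKM per library ran from 955606 to 1010904, and 12299 to 12676 genes per library reached 1 FPKM. Read totals cannot be had from these values, so the depth behind each value is unknown. Pearson's r of log2 values over the genes tested was 0.974 to 0.979 within GO, 0.974 to 0.98 within GONH2 and 0.975 to 0.981 between the GO and GONH2 libraries, so whole transcriptomes of the 2 materials differed by no more than replicates did on this measure. In 157 genes at least 1 library was listed at 0 beside a median of 10 FPKM or more in the libraries above 0, and 74 of these were tested and none (0) was called. Positions below are those of the WBcel235 assembly, differences are in log2(FPKM + 1) as GONH2 minus GO ± SE, and adjusted p is from limma's moderated test with Benjamini-Hochberg adjustment over all genes tested, with a threshold of 0.05.

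Few genes separated the materials. Of 12849 genes, 17 were called (0.132%), 5 of them higher (0.0389%) and 12 lower (0.0934%) in GONH2 than in GO. Those that fell included defence genes (lys-7, clec-85, clec-62, clec-65) and C01G10.4, which had the largest called difference; those that rose included the neighbouring genes pud-3 and pud-4. Of the called genes, 3 (Y46E12A.5, scl-24 and F55H12.9) reached the filter only in the libraries of the material where they were high, so the filter admitted them because they differed, and their calls support nothing further. A change of at least 2-fold was seen in 2 higher genes, both of that kind, and in 3 lower ones, of which 1 was of that kind and C01G10.4 and srlf-3 were not; the other 12 changed by less. In the same fit 139 genes were higher (1.08%) and 23 lower (0.179%) in GO than in control (1.26% in all), and 46 were higher (0.358%) and 10 lower (0.0778%) in GONH2 than in control (0.436% in all); these comparisons share libraries with each other and with the one described here. The count of called genes depended on the libraries fitted, and leaving out a GO or GONH2 library also leaves fewer to compare. Over the refits without a library the difference of lys-7 ran from −0.29 to −0.265, and that of F55H12.9 from −2.19 to −1.62. Without GONH2 replicate 3 the count was 0 higher and 1 lower, without GONH2 replicate 2 it was 2 and 6, and without GONH2 replicate 1 it was 4 and 7. It was 2 and 7 without GO replicate 1, and 4 and 3 without GO replicate 2.

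Without adjustment, 598 genes (4.65%) had a p under 0.05, of which 136 were higher (1.06%) and 462 lower (3.6%). The lower genes made up 77.3% of them, but 58.5% with median-of-ratios scaling and 48.3% with quantile normalization, so the lean toward lower values depended on the scaling. The median difference over all genes was −0.0241, against −0.00163 and 0.00878 under those scalings. Libraries of the materials did not overlap in 1287 genes (10%), 376 higher (2.93%) and 911 lower (7.09%) in GONH2, and all 17 called genes were among them; the scalings gave 657 and 643, or 800 and 513. The called genes themselves divided into 6 higher and 10 lower with the first scaling and 5 and 11 with the second.

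**Figure D1:**
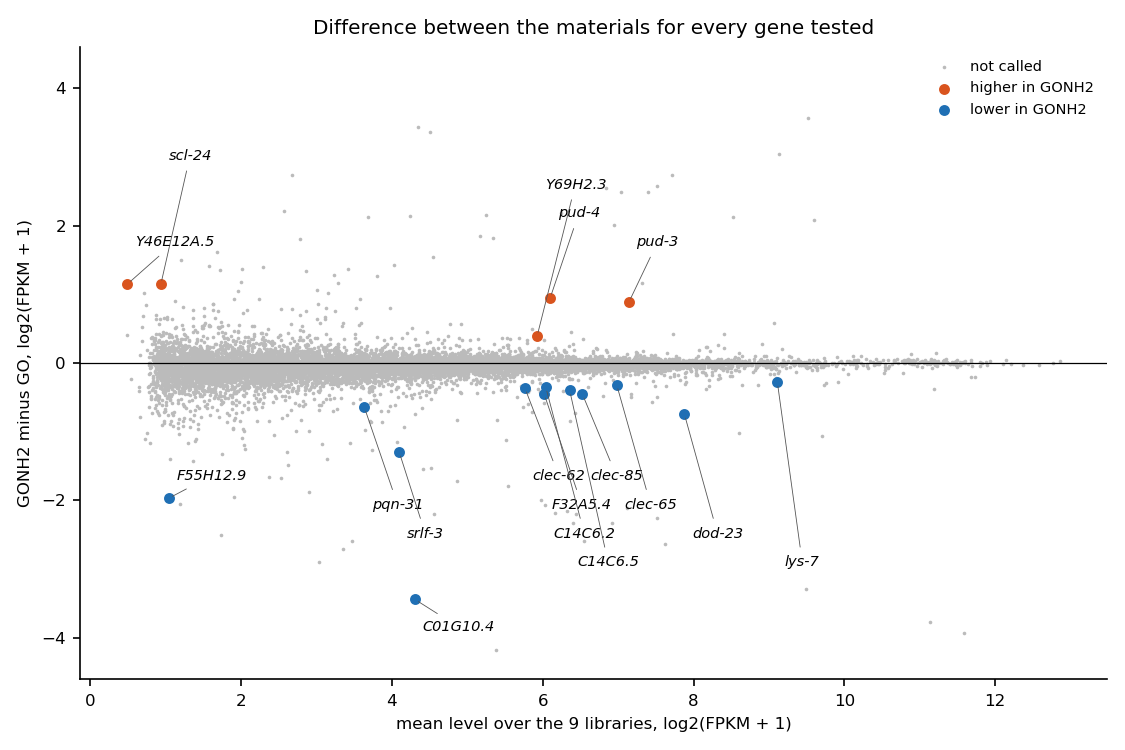
Difference between the materials (GONH2 minus GO, log2(FPKM + 1)) against the mean level over the 9 libraries (log2(FPKM + 1)) for the genes tested, with called genes in colour and named. The 5 genes higher in GONH2 lie above 0 and the 12 lower ones below it, 4 genes lie outside the plotted range, and many uncalled genes of large difference lie to either side.

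A p that misses the threshold does not show that the materials act alike, so the width of each estimate was recorded as well. The 95% interval of the difference lay wholly within 1.5-fold either way in 10628 genes (82.7%) and within 2-fold in 12188 (94.9%). Among the 7848 genes with a mean of at least 10 FPKM the shares were 94.3% and 97.8%. The median interval reached 0.134 to each side in those genes and 0.363 in the 5001 genes under 10 FPKM, so differences between weakly expressed genes were measured less precisely. With 0.1 in place of 1 added before the logarithm, 9301 of all genes tested (72.4%) had an interval within 1.5-fold. Of the called genes, 14 had a mean of at least 10 FPKM and 16 were protein-coding. By chromosome, 9 lay on V (of 2466 tested), 4 on II (of 2261) and 2 on IV (of 2068). There was 1 each on I (of 2076) and III (of 2058), and the share over all genes was 0.132%. Those on V include neighbours, pud-3 with pud-4 and C14C6.5 with C14C6.2, so the counts are a description.

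**Figure D2:**
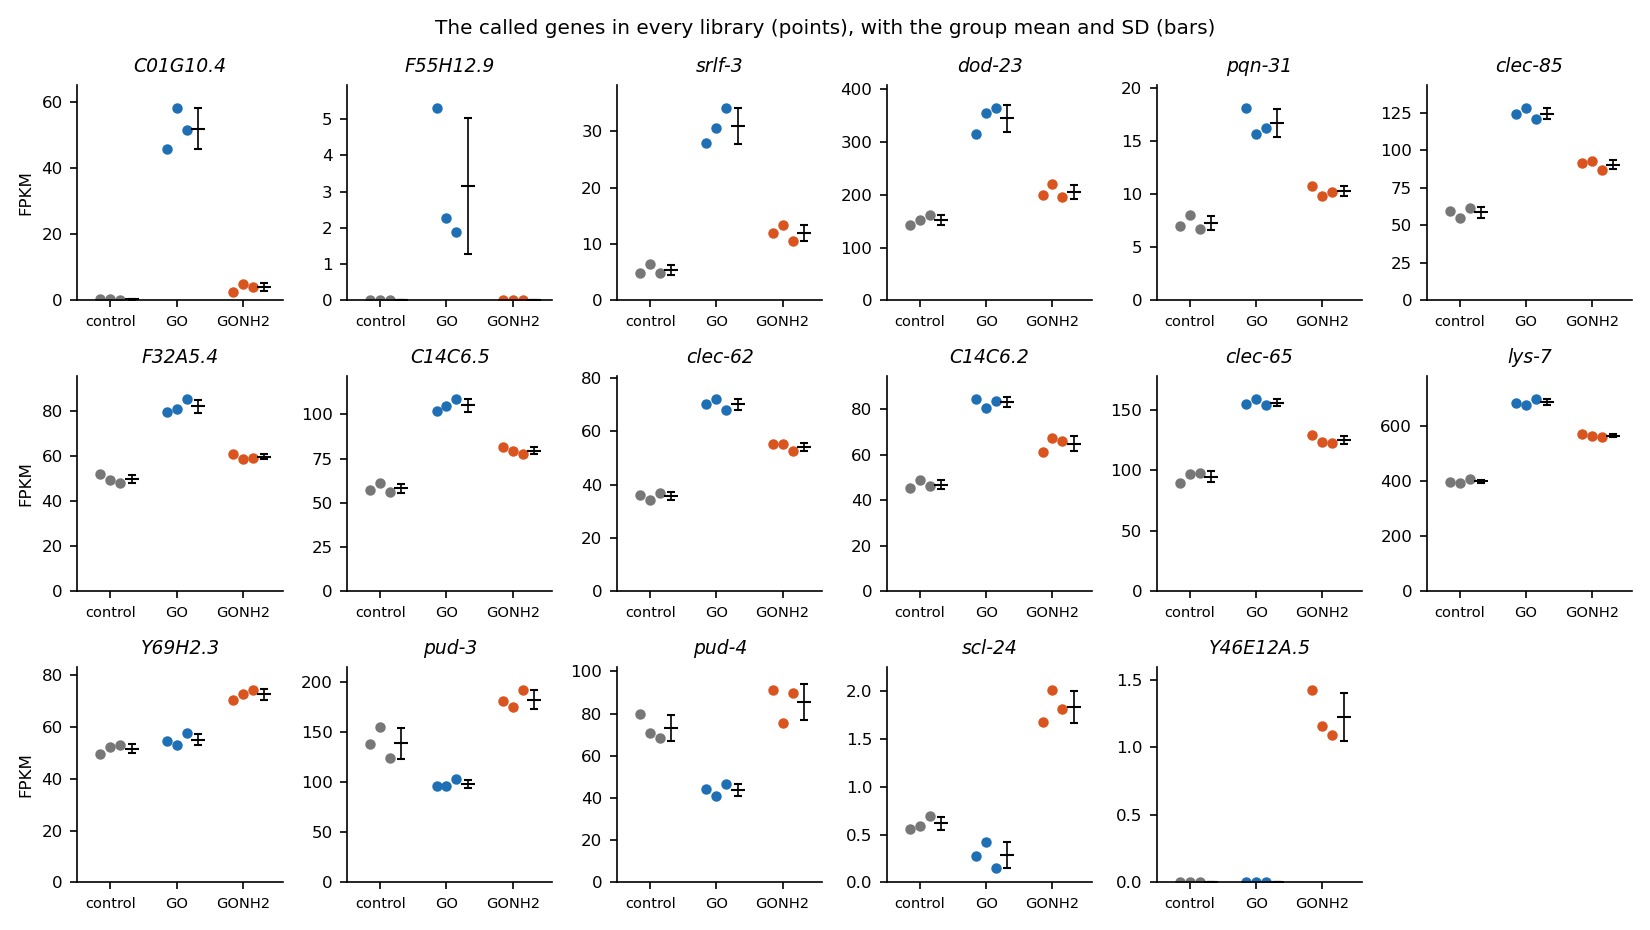
FPKM of the 17 called genes in each library of control, GO and GONH2 (points), with the group mean and SD (bars) on axes that start at 0. In each panel the GONH2 points lie wholly above or wholly below the GO points, and in 11 of the 12 lower genes GONH2 lies between control and GO.

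In 11 of the 12 genes lower in GONH2 than in GO, the 3 groups were fully separate, with control lowest, GONH2 in the middle and GO highest. The exception was F55H12.9, which was listed at 0 in both control and GONH2. The 5 genes higher in GONH2 followed other orders, given with each gene below. GO libraries enter both the choice of these genes and their distance from control, so these orders are a description.

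Among defence genes, lys-7 had the narrowest interval. It encodes a lysozyme, an enzyme that breaks down bacterial cell walls, and lies on chromosome V (WBGene00003096, 3481432 to 3482600). Its FPKM were 686, 678 and 701 in the GO libraries, 573, 566 and 562 in the GONH2 libraries and 398, 396 and 407 in control. The 3 groups were well apart, with little spread inside any of them. Expression was 1.21-fold lower with GONH2 (−0.28 ± 0.025, 95% interval −0.34 to −0.22, adjusted p = 0.00725). Against control the gene rose with GO by 0.78 (adjusted p = 5.33e-06) and with GONH2 by 0.50 (adjusted p = 1.08e-04). The difference between the materials missed the threshold without GONH2 replicate 3 (adjusted p = 0.0543) and without the mean-variance trend (adjusted p = 0.0579).

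C-type lectins are secreted or membrane proteins with a carbohydrate-binding fold, and many of them are induced by infection in the worm. clec-85 (WBGene00021872, chromosome IV, 2850886 to 2855456) had 124, 128 and 121 FPKM with GO, 91.9, 92.85 and 86.8 with GONH2 and 59.4, 54.9 and 61.6 in control. No library of one group reached the range of another. The level was 1.38-fold lower with GONH2 (−0.46 ± 0.048, 95% interval −0.57 to −0.35, adjusted p = 0.0107), and it stood above control by 1.07 with GO and 0.62 with GONH2 (adjusted p = 2.08e-05 and 0.00245). It is overlapped by the annotated genes Y54G2A.49, on the opposite strand, and Y54G2A.40, on the same one, and neither exceeded 2.06 FPKM in any library. No source used here says how reads of overlapping genes were counted. Leaving out GO replicate 1 or 2 or any GONH2 library took clec-85 past the threshold, to adjusted p = 0.0529 to 0.0701.

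clec-62 (WBGene00009393, chromosome II, 12893062 to 12895128) averaged 70.05 FPKM with GO (68.0 to 72.2), and was at 55.02, 55.1 and 52.4 with GONH2 and 36.1, 34.1 and 37.0 in control. Its neighbour clec-65 (WBGene00009396, 12901325 to 12903336) was at 155, 159 and 154 FPKM with GO, 129, 123 and 123 with GONH2 and 89.4, 97.1 and 97.8 in control. Both lectin genes showed the same ladder of groups, with no overlap. Relative to GO they were 1.29-fold and 1.25-fold lower with GONH2 (−0.36 ± 0.042, adjusted p = 0.0172; −0.32 ± 0.040, adjusted p = 0.0316). Neither was called without GO replicate 1, GO replicate 2 or any single GONH2 library, nor was clec-65 without GO replicate 3, and the adjusted p then ran from 0.0664 to 0.117 for clec-62 and from 0.0664 to 0.201 for clec-65.

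Between them lies clec-63 (WBGene00009394, 12895638 to 12897446), the most abundant of the local group, at 1091, 1072 and 1043 FPKM with GO and 868.5, 868.2 and 838.7 with GONH2. Here too every GONH2 library was below every GO library and above the control mean of 613 ± 43.4 FPKM (SD, n = 3). The difference of −0.32 ± 0.049 was close to that of clec-65 but did not pass (adjusted p = 0.0839). clec-66, which follows clec-65, had overlapping libraries (12.4 to 14.4 FPKM with GO, 10.6 to 12.55 with GONH2; −0.17, adjusted p = 0.9997), and clec-64 stayed under 1 FPKM in all 9 libraries and was not tested.

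dod-23 is one of the genes found downstream of DAF-16, the transcription factor held back by insulin signalling. It lies on chromosome II (WBGene00009898, 8398161 to 8399164), and its FPKM were 315, 354 and 365 with GO, 199.6, 221 and 196 with GONH2 and 142, 153 and 162 in control. GONH2 libraries sat much nearer to control than to GO, without overlapping either. The level was 1.68-fold lower with GONH2 than with GO (−0.74 ± 0.072, 95% interval −0.91 to −0.58, adjusted p = 0.00852). Its distance from control passed with GO (1.17, adjusted p = 9.55e-05) and did not with GONH2 (0.43, adjusted p = 0.0555). Without GO replicate 2 or GONH2 replicate 3 the adjusted p of the difference between the materials was 0.0581 or 0.0547.

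srlf-3 (WBGene00016180, chromosome IV, 8487483 to 8488490) showed one of the 3 falls of at least 2-fold. Its FPKM were 27.9, 30.6 and 34.2 with GO, 12.05, 13.35 and 10.6 with GONH2 and 4.80, 6.51 and 4.95 in control. Even the highest GONH2 library was at less than the lowest GO library by a wide margin, and all were above control. The level was 2.58-fold lower with GONH2 (−1.296 ± 0.13, 95% interval −1.59 to −1.01, adjusted p = 0.00852), and against control it was up by 2.32 with GO and 1.02 with GONH2 (adjusted p = 6.61e-05 and 0.0145). Leaving out GO replicate 2 or GONH2 replicate 3 gave adjusted p = 0.0581 or 0.0543.

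pqn-31 encodes a protein with a prion-like domain rich in glutamine and asparagine (WBGene00004119, chromosome V, 9109581 to 9111013). It was at 18.15, 15.7 and 16.199 FPKM with GO, 10.8, 9.86 and 10.25 with GONH2 and 7.01, 8.05 and 6.76 in control, again as 3 separate groups. The fall from GO was 1.62-fold (−0.64 ± 0.086, adjusted p = 0.0397). This call was among the least stable, since it held when control replicate 2 was left out and in none of the other 8 refits without a library (adjusted p = 0.0615 to 0.239).

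Of the called genes without a descriptive name, F32A5.4 on chromosome II (WBGene00017970, 7229150 to 7230616) had 79.8, 80.8 and 85.5 FPKM with GO against 61.01, 58.9 and 59.2 with GONH2. Control libraries were lower again, at 51.9, 49.5 and 48.17 FPKM. The drop between the materials was 1.37-fold (−0.45 ± 0.040, 95% interval −0.54 to −0.36, adjusted p = 0.00725), and the gene missed the threshold without GONH2 replicate 3 (adjusted p = 0.0543).

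C14C6.5 and C14C6.2 lie 25715 bases apart on chromosome V and are neighbours among the genes tested. C14C6.5 (WBGene00015759, 536628 to 537418) was at 102, 105 and 109 FPKM with GO, 81.6, 79.4 and 77.6 with GONH2 and 57.4, 61.2 and 56.0 in control. C14C6.2 (WBGene00015756, 563134 to 564446) was at 84.5, 80.4 and 83.7 FPKM with GO, 61.1, 67.4 and 65.97 with GONH2 and 45.2, 48.9 and 46.0 in control. The pair thus ran at similar levels with similar steps between groups. They were 1.32-fold and 1.28-fold lower with GONH2 (−0.40 ± 0.042, adjusted p = 0.0107; −0.35 ± 0.047, adjusted p = 0.0427). C14C6.5 was not called without GO replicate 2, GONH2 replicate 2 or GONH2 replicate 3 (adjusted p = 0.0701 to 0.0889), and C14C6.2 was called in 1 of the 9 refits without a library, that without control replicate 2 (adjusted p = 0.0719 to 0.25 in the others).

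The largest called difference belonged to C01G10.4, a short protein-coding gene with 272 bases of exon on chromosome V (WBGene00007231, 15089740 to 15090059). It was at 45.9, 58.4 and 51.7 FPKM with GO and at 2.69, 5.06 and 4.13 with GONH2. In control it was close to absent, at 0.477, 0.431 and 0 FPKM. GO libraries averaged 52.0 ± 6.26 FPKM and GONH2 libraries 3.96 ± 1.19 (SD, n = 3 each), a 13.1-fold lower level with GONH2 (−3.44 ± 0.21, 95% interval −3.93 to −2.95, adjusted p = 0.00151). Both materials were nonetheless above control, GO by 5.36 (adjusted p = 1.69e-05) and GONH2 by 1.92 (adjusted p = 0.00676). It kept its call in all 9 refits without a library (adjusted p = 0.00194 to 0.0197).

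Genes on either side of C01G10.4 were then examined, chosen after its value had been seen. C01G10.17 (15090757 to 15091114, same strand) was at 24.9, 27.2 and 22.5 FPKM with GO and 4.23, 4.59 and 1.67 with GONH2. C01G10.5 (15089076 to 15089538, opposite strand) was at 25.9, 20.2 and 11.9 FPKM with GO and 4.67, 1.25 and 0.408 with GONH2. Neither gene had overlapping libraries, yet neither passed: the differences were −2.59 ± 0.38 (adjusted p = 0.0669) and −2.89 ± 0.47 (adjusted p = 0.108), with SEs larger than that of C01G10.4. Genes flanking the 3 were low, with C01G10.6 at 0.476 to 1.199 FPKM with GO and 0.108 to 1.31 with GONH2 (−0.35, adjusted p = 0.9997) and txt-12 under the filter.

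Of the genes that rose with GONH2, pud-3 and pud-4 had the smallest p. They are of a family whose name stands for proteins upregulated in daf-2 mutants, in which insulin signalling is reduced. pud-3 (WBGene00017501, chromosome V, 2324634 to 2325152, minus strand) was at 96.0, 96.7 and 103 FPKM with GO, 181, 175 and 193 with GONH2 and 138, 155 and 124 in control. pud-4 (WBGene00017498, 2326678 to 2327282, plus strand) was at 44.3, 40.7 and 46.6 FPKM with GO, 91.4, 75.6 and 89.7 with GONH2 and 80.0, 70.7 and 68.5 in control. In both genes GO was the low group; GONH2 lay wholly above control in pud-3 and overlapped it in pud-4. The level was 1.86-fold higher with GONH2 than with GO for pud-3 (0.88 ± 0.075, 95% interval 0.71 to 1.06, adjusted p = 0.00725) and 1.95-fold for pud-4 (0.95 ± 0.088, 0.74 to 1.15, adjusted p = 0.00798). Against control the differences were −0.49 with GO and 0.39 with GONH2 for pud-3 (adjusted p = 0.0167 and 0.0959), and −0.72 and 0.22 for pud-4 (adjusted p = 0.00454 and 0.836). Both missed the threshold without GONH2 replicate 3 (adjusted p = 0.0543).

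The annotated pud genes of this locus stand in a row between positions 2322038 and 2330930 of chromosome V, and the other members were set beside these after their values had been seen. pud-1.2 had 264, 284 and 258 FPKM with GO and 379, 348 and 351 with GONH2, with no overlap, and its rise of 0.42 ± 0.065 fell short (adjusted p = 0.0839). pud-2.2 was at 2.56 to 5.17 FPKM with GO and 3.50 to 5.51 with GONH2 (0.28, adjusted p = 0.9997), and pud-2.1 at 0.530 to 1.02 and 0.533 to 0.895 (−0.07, adjusted p = 0.9997). pud-1.1 stayed between 0 and 0.828 FPKM and was not tested. pud-1.1 and pud-1.2, and likewise pud-2.1 and pud-2.2, are near-identical copies, and no source used here says how reads shared by copies were assigned, so their levels are uncertain. The more distant relative pudl-2 on chromosome IV averaged 0.317 ± 0.0389 FPKM with GO and 1.08 ± 0.40 with GONH2 (0.64 ± 0.17, adjusted p = 0.582).

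**Figure D3:**
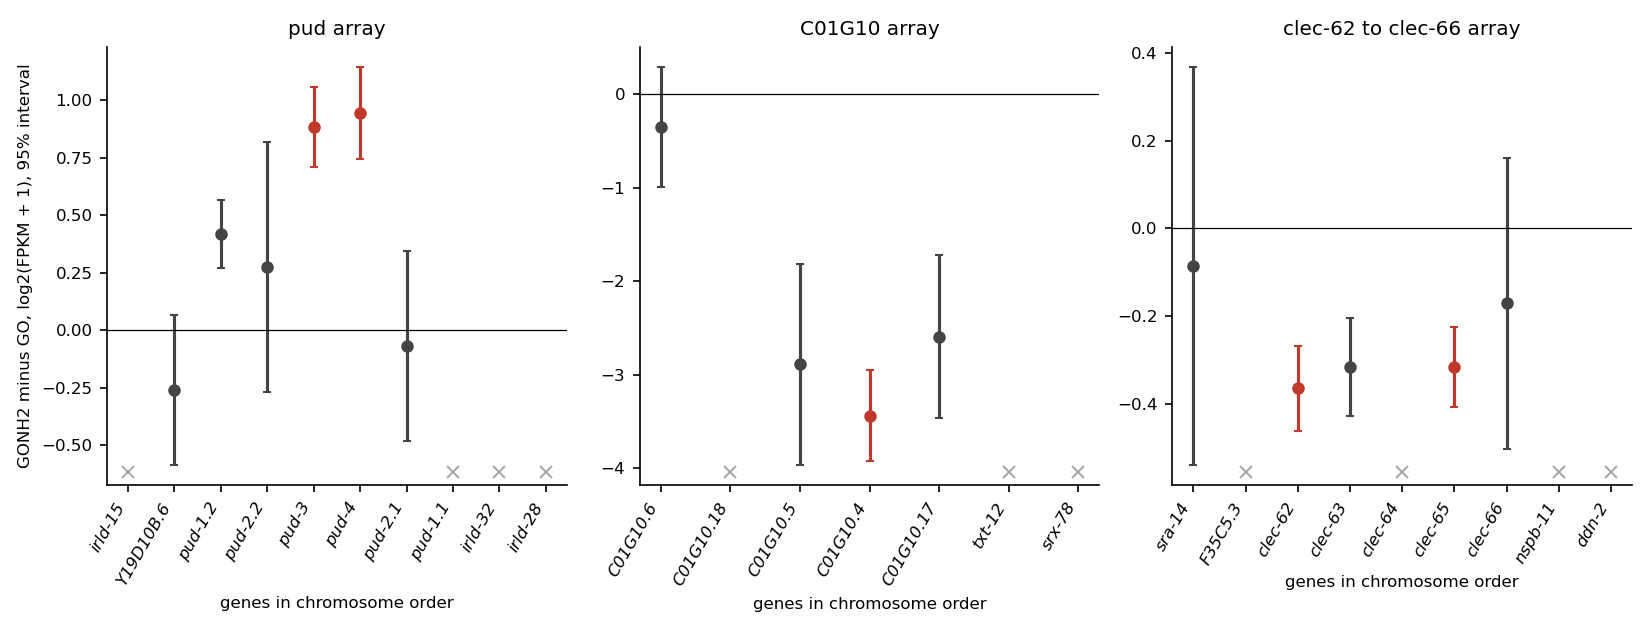
Difference between the materials (GONH2 minus GO, log2(FPKM + 1), points) with its 95% interval (bars) for genes in chromosome order around pud-3 and pud-4, around C01G10.4 and around clec-62 and clec-65. Called genes are red, uncalled ones dark grey, and crosses at the bottom edge are genes under the filter with no value; the called genes have neighbours of like sign, pud-1.2, C01G10.5, C01G10.17 and clec-63, with wider intervals or smaller differences.

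In Y69H2.3 the GO libraries lay just above control and the GONH2 libraries above both. On chromosome V (WBGene00013481, 18656088 to 18664126) it had 54.6, 53.1 and 57.5 FPKM with GO, 70.4, 72.8 and 74.4 with GONH2 and 49.7, 52.2 and 53.0 in control. The rise over GO was 1.32-fold (0.39 ± 0.042, 95% interval 0.29 to 0.49, adjusted p = 0.0107). The gene differed from control by 0.48 with GONH2 (adjusted p = 0.00272) and by 0.09 with GO (adjusted p = 0.67). It was not called without GO replicate 1 or 2 or GONH2 replicate 2 or 3 (adjusted p = 0.0701 to 0.0889).

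The other called genes were weakly expressed, and each reached 1 FPKM in the libraries of a single group, so each was tested only because it was high there. scl-24 encodes a member of the SCP-like family of secreted proteins (WBGene00008575, chromosome V, 17486334 to 17487241) and was at 0.273, 0.425 and 0.154 FPKM with GO, 1.68, 2.02 and 1.81 with GONH2 and 0.562, 0.595 and 0.698 in control. The groups did not overlap, and the ratio of GONH2 to GO means was 6.46 (1.15 ± 0.12 on the log2(FPKM + 1) scale, adjusted p = 0.0107). Only the GONH2 libraries carried it past the filter. Without GO replicate 1 or any GONH2 library scl-24 was not called (adjusted p = 0.0529 to 0.0889).

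Y46E12A.5 (WBGene00194738, chromosome III, 1757771 to 1758251, 240 bases of exon) was listed at 0 in all 6 control and GO libraries and at 1.43, 1.16 and 1.09 FPKM with GONH2 (1.15 ± 0.11, adjusted p = 0.00886). F55H12.9, a small nucleolar RNA gene of a class that guides chemical modification of other RNAs, lies on chromosome I (WBGene00219976, 8866808 to 8866973). It was listed at 5.32, 2.28 and 1.89 FPKM with GO and at 0 in all control and GONH2 libraries (−1.97 ± 0.26, adjusted p = 0.0397). Y46E12A.5 passed the filter only through GONH2 and F55H12.9 only through GO, so neither adjusted p is support for a difference. No fold is given against a group listed at 0, and a value near 1 FPKM over so short a gene rests on few fragments. Y46E12A.5 was not called without GO replicate 1 or 2 or GONH2 replicate 2 or 3 (adjusted p = 0.0543 to 0.0616), and F55H12.9 was called without GO replicate 1 or 3 and in none of the other 7 refits without a library (adjusted p = 0.0757 to 0.204).

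Just outside the threshold stood 10 genes with adjusted p from 0.0621 to 0.108, among them clec-63, pud-1.2, C01G10.17 and C01G10.5 described above. ttr-21, of the transthyretin-related family, was at 10.19, 10.07 and 11.35 FPKM with GO and 6.44, 7.18 and 6.73 with GONH2 (−0.57 ± 0.081, adjusted p = 0.0621). abf-5, related to antibacterial factors, was at 17.3, 19.4 and 18.9 FPKM with GO, 10.1, 9.57 and 9.72 with GONH2 and 8.28 ± 1.94 (SD, n = 3) in control (−0.86 ± 0.13, adjusted p = 0.0839). The GONH2 libraries of abf-5 thus lay inside the control range and well below GO. The remaining ones were Y47H9C.1 (−1.16, adjusted p = 0.0669), the carboxylesterase gene cest-12 (−0.85, adjusted p = 0.0898), K12H4.7 (−0.23, adjusted p = 0.0982) and the serine carboxypeptidase gene ctsa-1.2 (−0.22, adjusted p = 0.108). Of the 10, only pud-1.2 was higher with GONH2, and in all of them the libraries of the materials did not overlap, a property shared by 10% of all genes.

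Gene families and pathways were then read as lists, with counts and medians beside the median of −0.0241 over all genes. Of 42 lists, 7 held a called gene, and 8 of the 17 called genes belonged to a list. Over all genes 0.0389% were called higher and 0.0934% lower, and 1.06% were higher and 3.6% lower at an unadjusted p under 0.05, and the counts below are to be read against these shares. With quantile normalization 15 of the 42 list medians took the other sign, and with median-of-ratios scaling 8 did. The C-type lectins had 78 members tested, of which 0 rose and 3 fell; at an unadjusted p under 0.05, 4 were higher and 18 lower. Their median was −0.0964, with 52 of 78 below 0, beside 62.9% of all genes below 0. The most abundant lectin, clec-87, averaged 1857 ± 50.1 FPKM with GO and 1855 ± 35.0 with GONH2 (−0.00, 95% interval −0.07 to 0.07). clec-5 was higher with GONH2 than with GO, at 27.2 ± 0.530 against 21.5 ± 1.69 FPKM (0.33 ± 0.069, adjusted p = 0.317). Control was higher still, at 39.8 ± 2.81 FPKM, so GONH2 lay between GO and control. Against control clec-5 differed by −0.86 with GO (adjusted p = 4.8e-04) and by −0.53 with GONH2 (adjusted p = 0.0181).

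PMK-1 is the p38 kinase of the worm's main intestinal defence pathway. Of 11 genes known to depend on it, clec-85, already counted among the C-type lectins, fell and the others did not pass. At an unadjusted p under 0.05, 4 were lower and 0 higher (3.6% and 1.06% of all genes). The median was −0.163, and 9 of the 11 were below 0 (62.9% of all genes). irg-4 was at 8.93, 8.07 and 6.90 FPKM with GO, 6.07, 5.18 and 5.76 with GONH2 and 7.81 to 8.39 in control (−0.42 ± 0.10, adjusted p = 0.491). GONH2 was the low group there, with GO around the control level. C17H12.8 was at 209, 205 and 189 FPKM with GO and 166, 136 and 138 with GONH2 (−0.45 ± 0.12, adjusted p = 0.633).

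Among 10 lysozymes only lys-7 passed (0.0934% of all genes were called lower), and the median was −0.0263, but 0.0148 with quantile normalization. lys-8 was at 410 ± 8.22 FPKM with GO and 382 ± 14.3 with GONH2 (−0.10 ± 0.045, adjusted p = 0.9997), and ilys-5, an invertebrate-type lysozyme and the most abundant member, at 1793 ± 104 and 1959 ± 94.97 (0.13 ± 0.073, adjusted p = 0.9997). Saposin-like proteins, some of which form pores in bacterial membranes, had 23 members tested and 0 called. spp-1 was higher with GONH2 (277 ± 21.1 against 331 ± 22.3 FPKM; 0.26 ± 0.065, adjusted p = 0.56) and spp-2 lower (301 ± 9.65 against 244 ± 10.9; −0.30 ± 0.085, adjusted p = 0.686), each without overlap and neither called. Of 34 antimicrobial peptide genes 0 were called, 3 were higher and 3 lower at an unadjusted p under 0.05, and the median was 0.00844.

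DAF-16 lowers some genes and raises others. Of 7 genes that it lowers, dod-23 fell and the median was −0.163. At an unadjusted p under 0.05, 3 were lower and 0 higher (3.6% and 1.06% of all genes). dod-22 and dod-24 of this list are also among the PMK-1-dependent genes above, so these lists are not separate results. dod-19, also of this list, was at 188, 212 and 216 FPKM with GO and 152, 146 and 137 with GONH2, with no overlap (−0.50 ± 0.12, adjusted p = 0.493). The insulin-like peptide gene ins-7 was at 28.7, 23.7 and 22.3 FPKM with GO and 16.199, 15.98 and 21.98 with GONH2 (−0.45 ± 0.14, adjusted p = 0.784). Of 19 genes that DAF-16 raises, lys-7 fell and the median was −0.0368, but 0.019 with quantile normalization. The call of lys-7 is the one already counted among the lysozymes.

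The 7 pud and pudl genes tested had 2 called higher (0.0389% of all genes), 4 higher and 0 lower at an unadjusted p under 0.05 (1.06% and 3.6% of all genes), and a median of 0.419. Of 12 srlf genes tested, srlf-3 fell, 2 were higher and 3 lower at that unadjusted p, and the median was −0.0879. srlf-35 was at 25.8, 25.4 and 31.7 FPKM with GO and 13.9, 13.8 and 14.0 with GONH2 (−0.93 ± 0.20, adjusted p = 0.373), whereas srlf-1, the most abundant member, averaged 949 ± 27.4 and 945 ± 35.4 (−0.01, 95% interval −0.10 to 0.08).

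Digestive enzymes of the intestine had no called member (0 of 21 intestinal proteases and 0 of 11 serine carboxypeptidases). Each list had 4 members lower and 0 higher at an unadjusted p under 0.05 (3.6% and 1.06% of all genes). asp-3, a lysosomal aspartic protease, was at 1187, 1190 and 1185 FPKM with GO, 1071, 1083 and 1035 with GONH2 and 911 to 966 in control (−0.16 ± 0.031, adjusted p = 0.289). ctsa-1.2 was at 372, 403 and 397 FPKM with GO and 343, 339 and 326 with GONH2. The steps were small and the groups separate. The medians were −0.0519 and −0.15, and 10 of the 11 carboxypeptidases were below 0 (62.9% of all genes). Yolk protein genes had a median of the other sign, 0.109. Of 5 vitellogenins tested 0 were called, and 2 were higher at an unadjusted p under 0.05 (1.06% of all genes). Their summed levels overlapped, at 7849 to 8371 FPKM with GO and 8099 to 8636 with GONH2. A further vitellogenin was listed at 0 in all 9 libraries. No source used here says how reads shared by similar genes were assigned, so levels in this family are uncertain. vit-3 was at 391, 397 and 417 FPKM with GO, 443, 547 and 474 with GONH2 and 525 to 582 in control (0.28 ± 0.073, adjusted p = 0.633). vit-6, the most abundant, was at 4763 ± 99.0 and 4738 ± 174 FPKM.

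Stress and detoxification genes held no call. The lists covered 15 cytosolic and small heat shock proteins, 25 antioxidant enzymes, 38 glutathione S-transferases, 45 cytochrome P450 enzymes, 48 UDP-glucuronosyltransferases, 18 unfolded protein response genes of the endoplasmic reticulum, 10 of the mitochondria and 11 hypoxia genes. Of these the glucuronosyltransferases, which attach sugars to foreign compounds, had the lowest median (−0.106), with 4 lower and 0 higher at an unadjusted p under 0.05. The abundant members sat close in both materials, for example the mitochondrial chaperone hsp-6 at 301 ± 7.91 and 300.2 ± 2.54 FPKM (95% interval −0.06 to 0.05) and the peroxiredoxin prdx-2 at 1078 ± 28.8 and 1085 ± 28.9 (95% interval −0.06 to 0.08). In the housekeeping lists, 33 of 33 proteasome subunits and 77 of 80 cytosolic ribosomal proteins had an interval wholly within 1.5-fold. The share was 94.3% among all genes with a mean of at least 10 FPKM, and 16 of 16 muscle markers also had such an interval. Of 117 neuropeptide genes 0 were called, and the smallest p was that of nlp-7, at 17.7, 16.52 and 17.7 FPKM with GO, 13.4, 13.5 and 13.4 with GONH2 and 16.13 to 17.9 in control (−0.34 ± 0.057, adjusted p = 0.119). Nuclear hormone receptors, transcription factors that sense lipids and foreign compounds, had 0 of 163 called. At an unadjusted p under 0.05, 1 was higher and 8 lower, shares near those of all genes (1.06% and 3.6%), and the median was −0.0504, but 0.0136 with quantile normalization. Of 78 cuticle collagen genes 0 were called and 0 were past an unadjusted p of 0.05 in either direction (median −0.0198, but 0.00423 with median-of-ratios scaling and 0.0163 with quantile normalization).

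**Figure D4:**
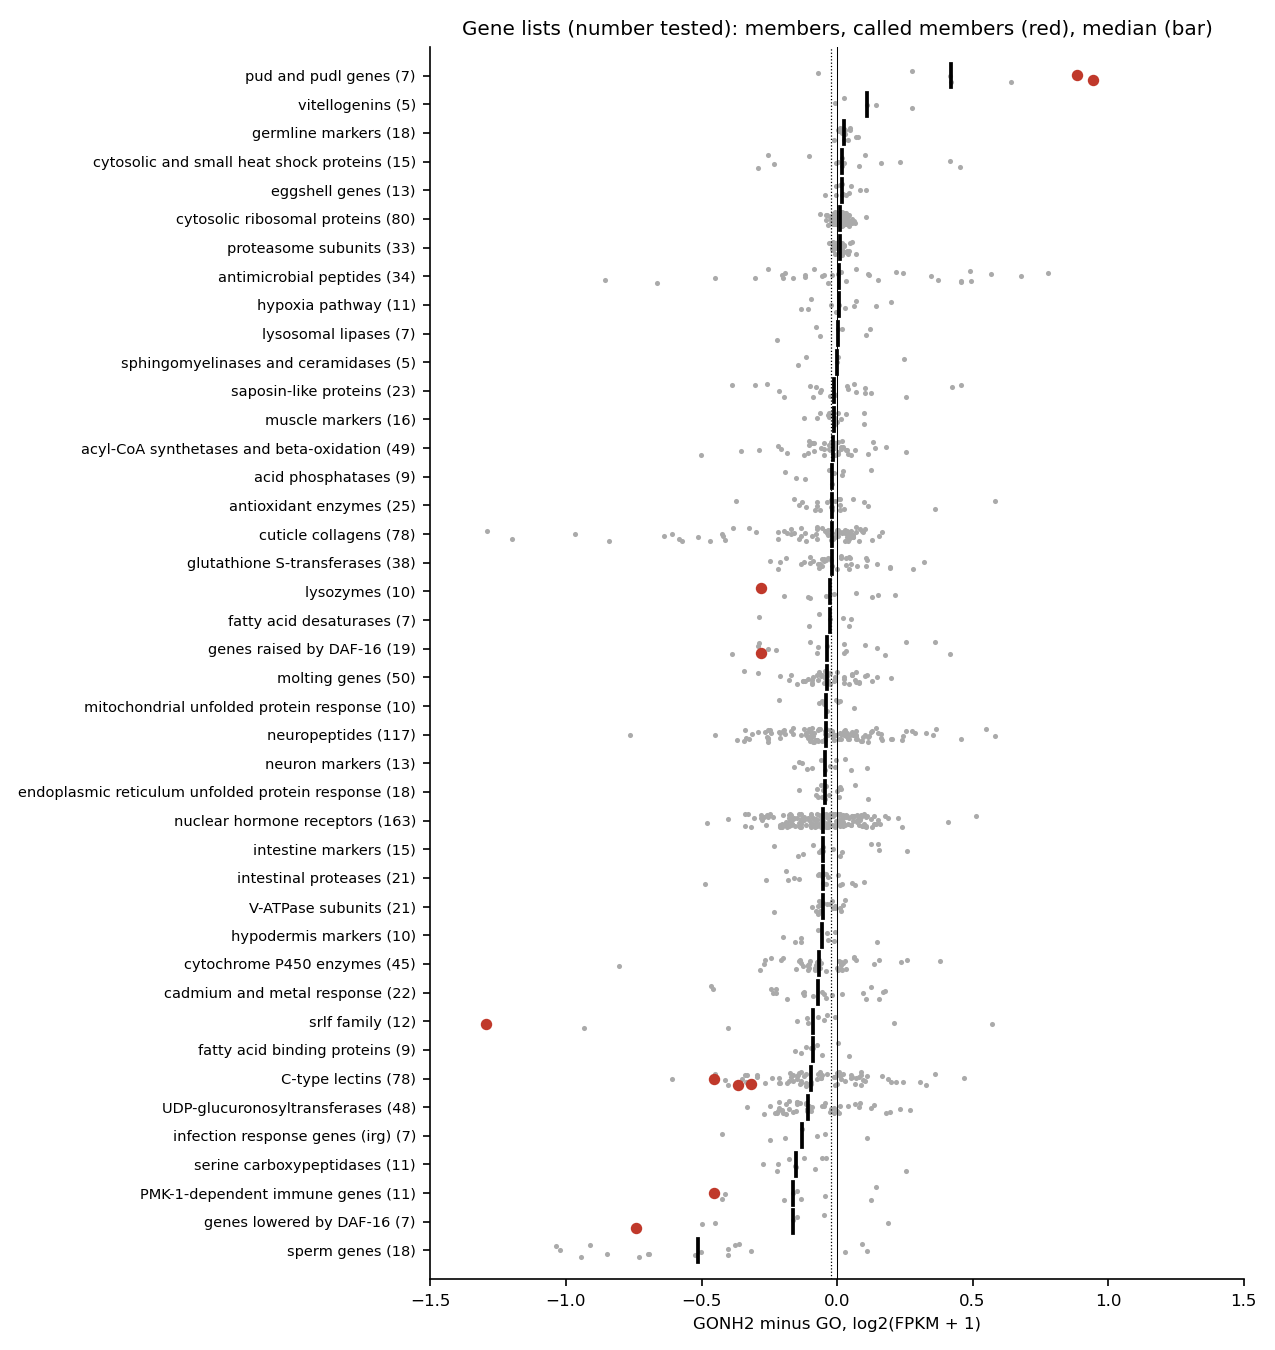
Difference between the materials (GONH2 minus GO, log2(FPKM + 1)) for the tested members of each gene list (points, called members red), with the list median (bar); the dotted line is the median of all genes tested, and 9 members lie outside the plotted range of 1.5 to either side. The pud and pudl genes sit highest with a median of 0.419 and the sperm genes lowest with −0.512.

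Summed levels of tissue markers overlapped between the materials for intestine, muscle, neurons and hypodermis. Intestine markers (15 tested) summed to 3543 to 3680 FPKM with GO, 3441 to 3612 with GONH2 and 3091 to 3207 in control. Control thus stood below both materials in the sum, which abundant members dominate. The median deviation of these markers from their means over the 9 libraries overlapped between all groups. It was −0.137 to 0.0566 in control, −0.024 to 0.142 with GO and −0.0133 to −0.00141 with GONH2. Muscle markers (16) summed to 5256 to 5360 FPKM with GO and 5202 to 5328 with GONH2. Neuron markers (16 in the sum, 13 of them tested) summed to 353 to 387 with GO and 353 to 371 with GONH2. Hypodermis markers (12 in the sum, 10 of them tested) summed to 1435 to 1484 with GO and 1346 to 1533 with GONH2. Germline markers (18) summed to 5443 to 5478 with GO and 5485 to 5741 with GONH2. The germline sums did not overlap, but the meiotic gene him-3 was listed at 0 in GO replicate 2 beside 85.03 and 80.2 FPKM in the other GO libraries, which is more than the gap between the sums. The median of the germline markers was 0.0265. No defining marker was at 0 in all 9 libraries.

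Sperm genes had the lowest median of the lists, −0.512 over 18 members tested of 75. Of the 18, 15 were below 0 (62.9% of all genes) and 0 were called. The summed level of all 75 sperm genes listed was 60.3 to 108 FPKM with GO and 49.3 to 56.3 with GONH2. Control spanned both ranges, at 91.2 and 59.9 FPKM in replicates 2 and 3 and below every GONH2 library in replicate 1. GO libraries ranged widely. The median deviation of the 18 sperm genes tested was 0.771, −0.235 and 0.264 in the GO libraries and −0.287, −0.292 and −0.211 in the GONH2 libraries. On this measure GO and GONH2 overlapped, while their sums did not. The part of sperm genes in the other differences was not tested.

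Among the genes called in GO against control, those that moved most were followed into GONH2; they were chosen on GO values, so these figures are a description. The 15 largest rises among those called genes were 1.35 to 5.36 above control with GO and 0 to 1.92 above it with GONH2. Libraries of the materials did not overlap in 14 of the 15 (10% of all genes), and 3 were called between the materials (C01G10.4, srlf-3 and F55H12.9; 0.132% of all genes). The GO values that chose these genes also enter this comparison, so nothing is read from either count. The exception was Y37H2A.14, at 27.5 ± 6.23 FPKM with GO and 23.8 ± 6.67 with GONH2 against 9.81 ± 2.53 in control.

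The 15 largest falls with GO among called genes differed from gene to gene. pud-3 and pud-4 were at or above control with GONH2. The acid sphingomyelinase gene asm-3, by contrast, was at 0.162, 0.446 and 0.241 FPKM with GO, 0.619, 0.524 and 0.407 with GONH2 and 2.77 to 3.56 in control, so both materials stood far below control and overlapped each other (0.25 ± 0.13, adjusted p = 0.9997). C50B6.7 was at 7.03 ± 0.266 FPKM with GO, 6.81 ± 0.878 with GONH2 and 12.99 ± 0.125 in control. Over the 15 genes GONH2 minus GO ran from −0.0454 to 0.945, and libraries of the materials did not overlap in 7 of them, counted on the GO values that chose them.

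**Figure D5:**
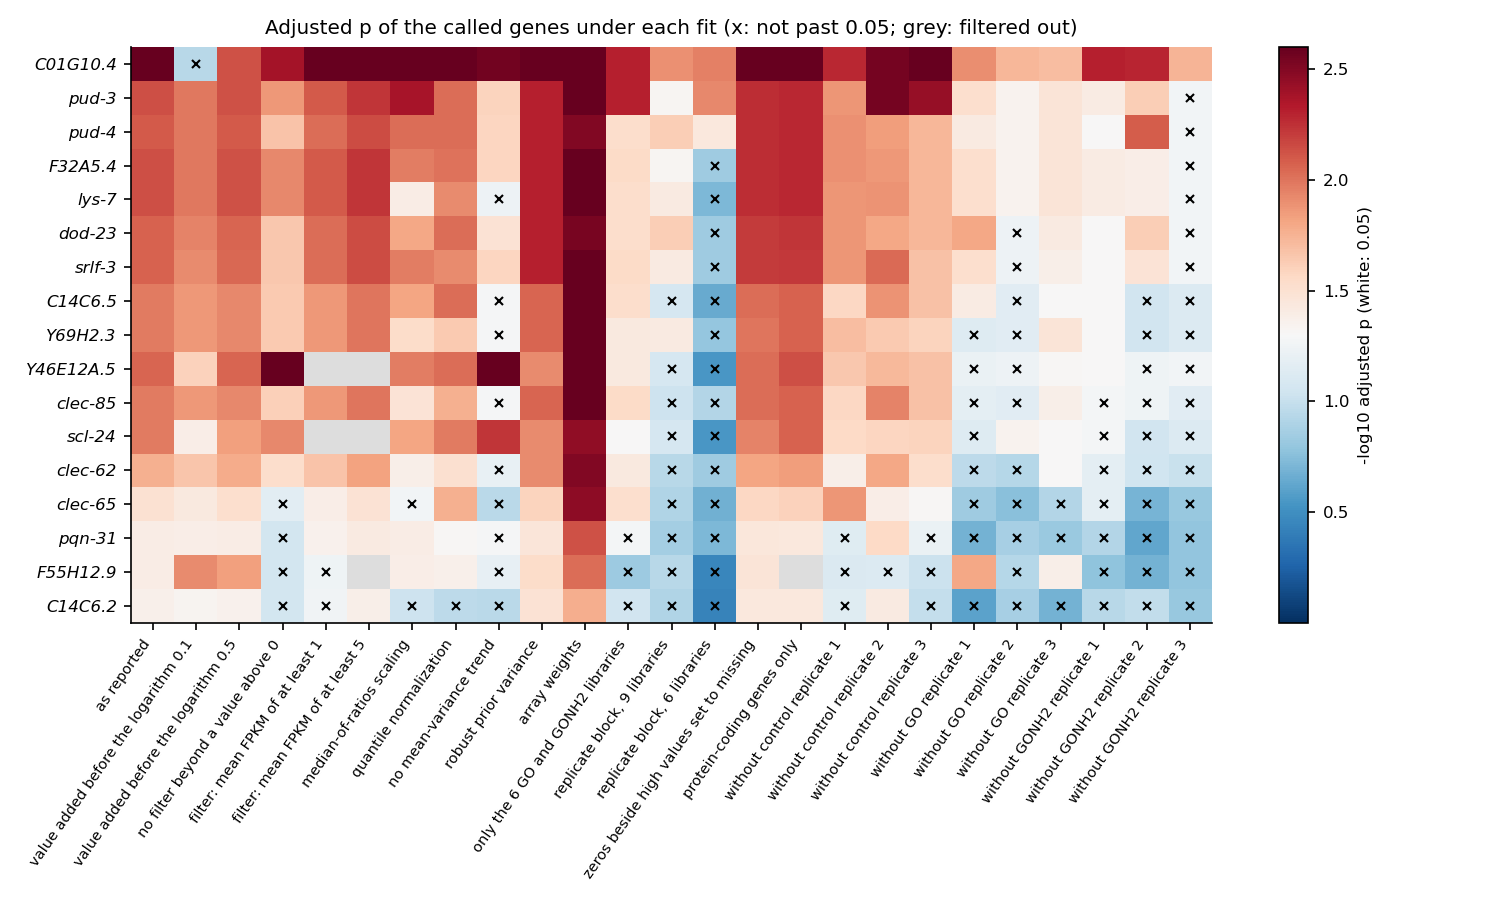
Adjusted p (as −log10, colour) of the 17 called genes (vertical) under the fit as reported and each refit (horizontal); crosses are not past 0.05 and grey cells were filtered out. C01G10.4 has 1 cross and pud-3 and pud-4 have 1 each, while C14C6.2, pqn-31 and F55H12.9 have the most.

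Across the refits C01G10.4 kept its call in 23 of 24 and lost it when 0.1 was added before the logarithm in place of 1 (adjusted p = 0.115). pud-3 and pud-4 were also called in 23 of 24, F32A5.4 in 22, and lys-7, dod-23 and srlf-3 in 21. At the other end were pqn-31 in 11 of 24, F55H12.9 in 9 of 22 and C14C6.2 in 8 of 24. Without the mean-variance trend 8 of the 17 kept their call. No called gene changed direction in any refit.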

How the data were processed

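RNA-seq of whole N2 animals gave 9 libraries, 3 each of control, GO and GONH2, grouped by the treatment in the labels. Per the labels' protocols, RNA was extracted with TRIzol and RNeasy columns and made into stranded TruSeq libraries that were sequenced as read pairs. The authors deposited FPKM per gene, a value already scaled for gene length and library total; per the submitters' processing notes DESeq2 was used, in a role not stated. The aligner, counter, build and annotation were not given in the sources used here, and the effect of counting choices on overlapping or duplicated genes is unknown.

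Gene IDs were matched to Ensembl release 115 of WBcel235, which held 46109 of 46284 IDs and gave a symbol for 43325. Genes reaching 1 FPKM in 3 or more of the 9 libraries were kept. log2(FPKM + 1) was modelled in limma 3.58.1 (R 4.3.3) with group as the only term and a mean-variance trend, giving 6 residual and 2.47 prior degrees of freedom. Tests were two-sided, with Benjamini-Hochberg adjustment over 12849 genes at 0.05. A fold change on this scale understates the change of weakly expressed genes. An exact permutation test of 3 against 3 cannot go below p = 0.1 and was not used. Since the values are FPKM, no count test was run, and since read totals are unknown, no counting interval or floor is given. The method was tested on simulated data.

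Named genes are every called gene, the 10 next by p, the leading and most abundant members of gene lists, tested neighbours of called genes, and, of the genes called in GO against control, the 15 with the largest change each way. The genes compared and the lists were chosen with earlier results of these data known. Alternatives were other values added before the logarithm, filters, scaling, prior, weights, thresholds, samples fitted, a replicate block and leaving out each library. Python 3.11.15 and matplotlib 3.10.9 drew the figures.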

Additional observations from a re-analysis of the deposited data

How the results depend on the processing

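Directions held: no called gene reversed under any alternative, and 86 values of uncalled genes changed sign while staying uncalled. Counts were less steady, and the cause was not tested. The 5 higher genes became 3 with a filter on mean FPKM of at least 1 or at least 5 (scl-24 and Y46E12A.5 fall under both), 3 at adjusted p under 0.01, and 0 to 6 without a library. The 12 lower genes became 5 without the mean-variance trend, 36 with array weights, 5 at adjusted p under 0.01, 19 at adjusted p under 0.10, 5 at a minimum of 1.5-fold and 1 to 15 without a library. Genes with an interval within 1.5-fold numbered 17113 with no filter, where 20688 genes were tested, and 9823 to 10783 without a library. They numbered 9301 (72.4%) with 0.1 added before the logarithm and 9919 (77.2%) with 0.5, against 10628 (82.7%) with 1. Without a library 2065 to 3127 genes had separate groups, since 3 libraries against 2 separate more easily. Of 462 recomputed list medians 17 moved by more than the spread between replicates.

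Replicate numbers are shared by the groups. Same-numbered GO and GONH2 libraries deviated together by r = 0.067, 0.0568 and −0.0259, and differently numbered ones by −0.0877 to 0.0402. No label says that a number marks a shared day or culture, and such weak correlations cannot decide whether the samples are paired. With the replicate number as a block the calls were 3 higher and 5 lower in 9 libraries, and 2 higher and 1 lower in 6 libraries.

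FPKM carry no read totals, so what depth limits cannot be computed; the wide intervals under 10 FPKM leave differences there poorly bounded.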

Other observations

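Several large differences between the materials rested on a lone library listed at 0, and none of them was called. The ribosomal protein gene rps-24 was at 3215 to 3583 FPKM in the 3 GO libraries and at 3356 and 3436 in GONH2 replicates 1 and 2, but was listed at 0 in GONH2 replicate 3. rps-12, atfs-1 (a factor of the mitochondrial unfolded protein response) and the V-ATPase gene vha-13 were also listed at 0 in that library. The aspartic protease gene asp-5 was listed at 0 in GO replicate 1 beside 720 and 705 FPKM in the other GO libraries and 633 to 676 with GONH2. The eggshell gene cpg-3 was at 0 in GONH2 replicate 1 and control replicate 1, beside 899.5 to 951 FPKM in the other 7 libraries. These genes were chosen after their values were seen, and the cause of the zeros was not tested.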
